A study of Mus musculus with 12 samples.

Results

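The IL-20 subfamily groups cytokines of the IL-10 family with the receptor chains that bind them. In mouse these are the cytokine genes Il19, Il20, Il22 and Il24 and the receptor genes Il20ra, Il20rb, Il22ra1 and Il10rb. Il20rb and Il19 were chosen by measured values: Il20rb had been selected on its lower level 2 h after wounding, and which value of Il19 was in view is not recorded. The other 6 genes enter by name, as ligands or partner chains. Of these 8 genes, 7 had a probe set, 1 each, among 909 named genes on 1246 probe sets, and Il24 was not analysed here. The 7 probe sets each carried a RefSeq accession that matched 1 mouse symbol.

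The study asked how mouse skin responds in the first hours after a wound, in mice whose titles carry the prefix B6, with no age, sex or other treatment given. The groups used here were 0 h after wounding with 1 sample, 30 min with 2 samples, 2 h with 4 samples and 4 h with 1 sample, set against 4 non-wounded samples. The material is stated in different ways: the design text plans RNA of the whole epidermis, while the labels call every sample dendritic epidermal T cells, the resident gamma delta T cells of mouse epidermis. Whether replicates came from separate mice is not stated, so a p-value here reflects how these samples vary, possibly for technical reasons only. In bulk samples, fewer cells of a type and less RNA per cell cannot be told apart.

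Values are log2 units as summarised by RMA (robust multi-array average), so a difference of 1 is a 2-fold change. The 5 samples numbered 1, 1 in each group, had a narrower range than the other 7: the standard deviation across probe sets lay between 1.55 and 1.85, and between 2.19 and 2.30 for numbers 2 to 4. The 0 h and 4 h groups hold such a sample alone. Differences at 0 h and 4 h are therefore also given from the non-wounded sample of the same number, as deposited and with every sample scaled to one median and standard deviation. Of 10 T cell markers, 4 were measured (Klrk1, Cd69, Il2rb and Klrd1) and Cd3e, Cd3g and Trdc were not analysed here. Klrk1, which encodes a receptor carried by dendritic epidermal T cells, read 2.27 to 3.12 and the activation marker Cd69 2.27 to 2.99, both under the median of all probe sets in every sample (3.94 to 4.32). Il2rb, an IL-2 and IL-15 receptor chain, read 4.61 to 5.96, and the receptor gene Klrd1 read 2.74 to 5.87, with its lowest value at 4 h. The keratinocyte gene Lgals7 read 10.997 to 12.36, and the Langerhans cell gene Cd207 6.57 to 9.32.

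Class II cytokine receptors work as pairs of a long ligand-binding chain and a shared chain. IL-19 signals through IL-20RA with IL-20RB. IL-20 and IL-24 use that pair and also IL-22RA1 with IL-20RB, and IL-22 uses IL-22RA1 with IL-10RB, which serves IL-10 and the lambda interferons as well. In skin the receptor chains sit mainly on keratinocytes, where the signal runs through Janus kinases to STAT3 and drives proliferation and defence genes, while the cytokines come from keratinocytes, myeloid cells and lymphocytes.

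The promoter of Il20rb is shown for its difference at 4 h from the non-wounded sample numbered 1. That difference ranked 2 from the lowest of all probe sets, or 3 after scaling. A window of the Il20ra promoter is shown because it holds the single motif match found in the pair. Both come from RefSeq, build GRCm38.p6, whose promoter table matched 6 of the 8 genes. The Il20rb stretch is the 250 bases before the annotated start, chr9:100486474-100486723, minus strand, upstream of the first exon. The Il20ra window is chr10:19712412-19712441, plus strand, upstream of a start site that lies 914 bases inside the outer end of the annotated gene. Capitals mark a match to the AP-1 motif.
Il20rb: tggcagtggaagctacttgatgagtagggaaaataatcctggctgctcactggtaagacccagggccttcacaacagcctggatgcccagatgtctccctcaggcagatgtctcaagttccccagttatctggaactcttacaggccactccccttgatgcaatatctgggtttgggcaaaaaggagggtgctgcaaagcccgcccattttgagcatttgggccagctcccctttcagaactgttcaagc
Il20ra: ctctgctgtacTGAGTCAgagctcatcggc
Motifs were searched on both strands of the 250 bases before each start. AP-1, written TGANTCA, was found in 6.75% of 32851 mouse promoters, the STAT motif TTCNNNGAA in 7.02% and the NF-kB motif GGGNNTTCC in 4.98%. These letters do not overlap one another in the stretches shown. Il20rb held no match to any of the 3, and its 250 bases were 52.4% G or C. The Il20ra match lies 164 to 158 bases before the start. Il22ra1 held 1 AP-1 match, TGAATCA, and Il19 held 1 STAT match, TTCCCAGAA. Il20 and Il22 held none. A match describes letters only.

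Il20rb, the shared chain of both IL-20 receptors, was lower at 2 h and lowest at 4 h. At 2 h it read 6.38, 8.66, 8.41 and 7.90 in replicates 1 to 4, against 7.92, 9.06, 9.33 and 9.15 in the non-wounded samples. The 2 groups overlapped, since the non-wounded sample numbered 1 lay below 2 h replicates 2 and 3. The means were 7.84 ± 1.02 at 2 h and 8.86 ± 0.64 without a wound (SD, n = 4 each), a difference of -1.03. Because the gene was selected on this contrast, the difference is a description and has no test. Within pairs of the same replicate number the 2 h sample was lower in all 4, by -1.53, -0.40, -0.92 and -1.26 on the log2 scale. Of all probe sets, 11.6% were lower in all 4 pairs, and nothing is read from that count here. After scaling, the 4 pair differences stayed between -1.41 and -0.40. Without the 2 h sample numbered 1 the difference of means was -0.54, and without the non-wounded sample numbered 1 it was -1.34.

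**Figure D1:**
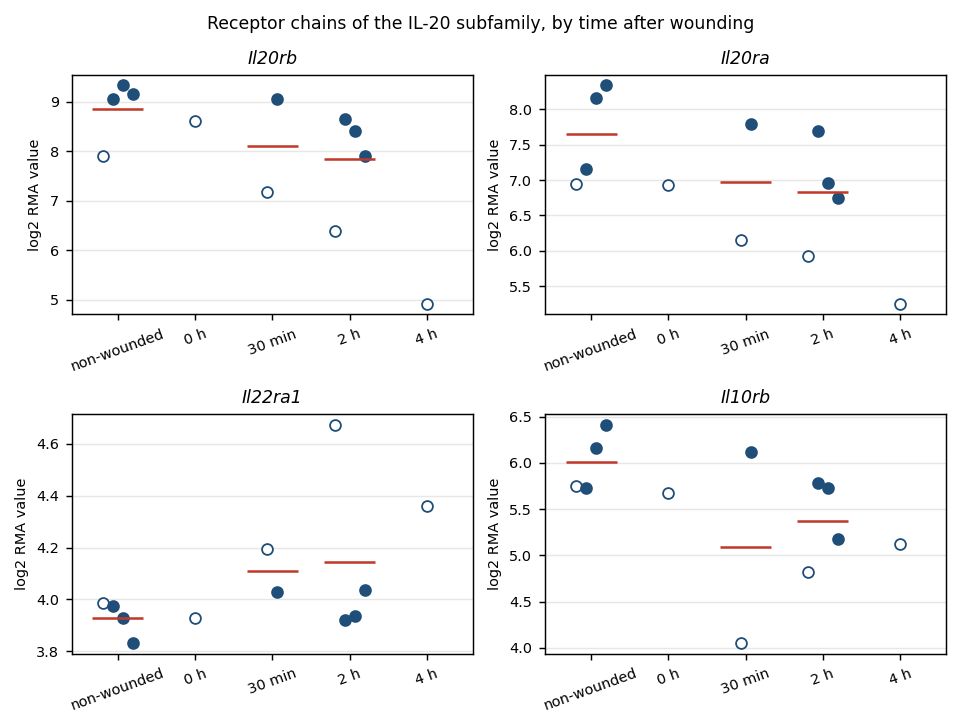
The 4 receptor genes (log2 RMA value) in non-wounded, 0 h, 30 min, 2 h and 4 h samples; each point is a sample, open points are the samples numbered 1 and red lines are means of groups with over 1 sample. Il20rb and Il20ra have their lowest points, 4.93 and 5.25, at 4 h, and each panel has its own scale.

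At 0 h and 30 min the direction of Il20rb depended on the sample compared. The single 0 h sample read 8.62, inside the non-wounded range. It was -0.25 from the non-wounded mean but 0.70 above the non-wounded sample numbered 1, or 0.67 after scaling. The 30 min samples read 7.17 and 9.06. At 30 min the mean was 8.12 ± 1.33 (SD, n = 2), -0.75 from the non-wounded mean. The difference was -0.40 with the replicate number as a block and -0.32 after scaling. Of the 2 samples at 30 min, 1 is numbered 1, with the narrower range, against 1 of 4 non-wounded samples. The 30 min and non-wounded groups overlapped, pair number 2 differed by -0.00033, and without 30 min replicate 1 the difference of means was 0.19. Between 2 h and 30 min the difference was -0.28, or -0.63 with the replicate number as a block. Without 2 h replicate 1 it was 0.20, and without 30 min replicate 2 it was 0.66. Both comparisons share samples with the contrast on which Il20rb was selected, so their differences are given without a test.

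At 4 h the single sample read 4.93 for Il20rb, below all 4 non-wounded samples. It was -3.94 from their mean and -2.99 from the non-wounded sample numbered 1, which is 7.94-fold lower. That difference ranked 2 from the lowest of 1246 probe sets, and after scaling, at -3.25, it ranked 3. With 1 sample there is no test. A difference of -1 or beyond against the non-wounded sample numbered 1 was found in 8.51% of all probe sets, and in 8.99% after scaling. Of the 7 genes measured here, Il20rb and Il20ra passed that line. The share past it was higher among other probe sets of like level, within 0.5 log2 units in the non-wounded sample numbered 1. It was 33.3% around Il20rb and 30.0% around Il20ra. Probe sets of high level were lower at 4 h in general: among the 51 others within 0.5 log2 units of Il20rb in the non-wounded sample numbered 1, the median difference was -0.73, the lowest was -2.56 and 0 were lower than Il20rb.

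**Figure D2:**
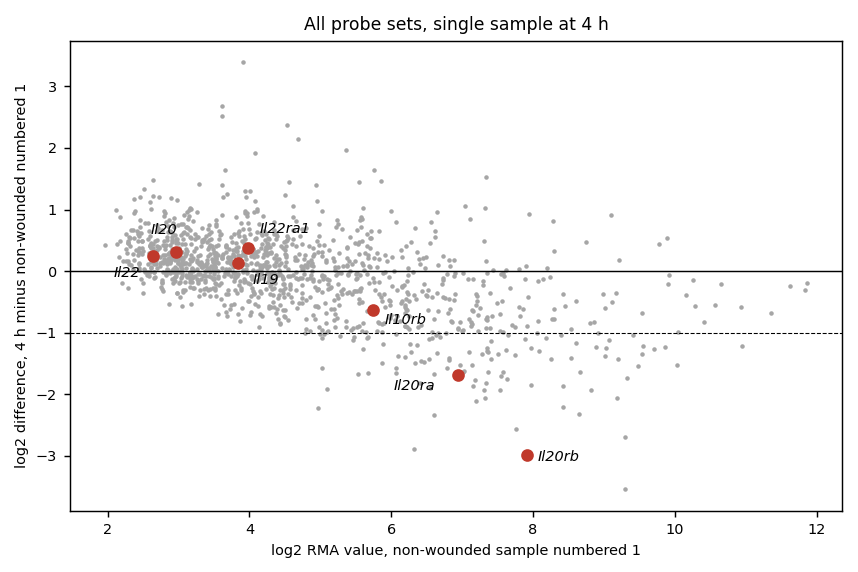
Difference between the 4 h sample and the non-wounded sample numbered 1 (y axis, log2) against the level in the latter (x axis, log2 RMA value) for 1246 probe sets in grey and the 7 genes in red; the dashed line marks -1. Il20rb at -2.99 and Il20ra at -1.69 lie below the line, and the cloud as a whole slopes down towards high levels.

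Il20ra, the chain that pairs with IL-20RB to bind IL-19, IL-20 and IL-24, had its lowest value at 4 h and varied widely within groups. At 2 h it read 5.92, 7.70, 6.95 and 6.75, against 6.94, 7.15, 8.16 and 8.34 in non-wounded samples. The groups overlapped, and in pair number 2 the wounded sample was the higher. The means were 6.83 ± 0.73 at 2 h and 7.65 ± 0.70 without a wound (SD, n = 4 each), and the difference of -0.82 (95% interval -1.92 to 0.29) missed the threshold (limma, adjusted p = 0.998). With the replicate block its interval was -1.55 to -0.08 and the adjusted p was 0.306. In this comparison 58 of 1246 probe sets had an unadjusted p under 0.05, and 172 with the block. The adjusted threshold was passed by 0.241% of all probe sets, and by 1.36% with the block. The pair differences were -1.02, 0.55, -1.21 and -1.59.

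The 0 h sample read 6.94 for Il20ra, -0.71 from the non-wounded mean and -0.0075 from the non-wounded sample numbered 1, or -0.07 after scaling. The 30 min samples read 6.15 and 7.79, -0.67 from the non-wounded mean (limma, adjusted p = 0.756). With the replicate block the difference was -0.36 (limma, adjusted p = 0.719), and without 30 min replicate 1 it was 0.14. At 4 h the value was 5.25, below every other sample. This was -2.39 from the non-wounded mean and -1.69 from the non-wounded sample numbered 1, rank 27 from the lowest, or -1.76 and rank 28 after scaling. Of the 110 other probe sets within 0.5 of its level there, 8 had a lower difference at 4 h than Il20ra. The median difference of the 110 was -0.69, and 30.0% of them were lower by 1 or more.

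**Figure D3:**
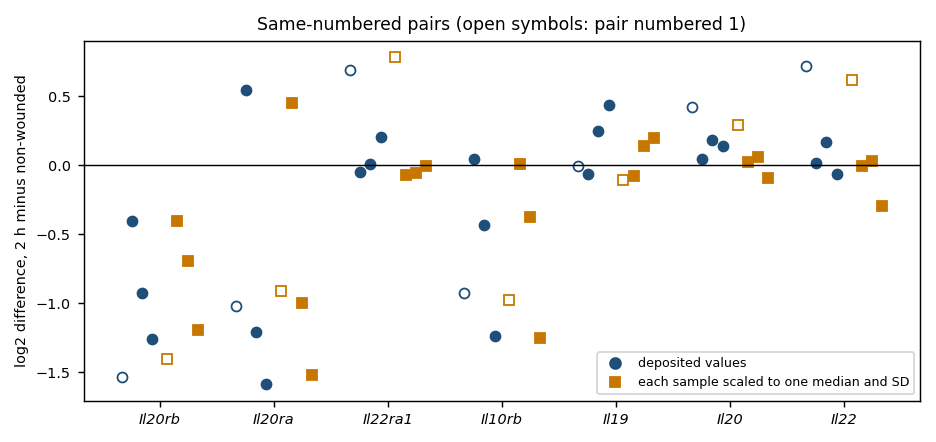
Difference between the 2 h and non-wounded samples of the same replicate number (y axis, log2) for each of the 7 genes, as deposited (circles) and after giving all samples the same median and SD (squares); open symbols are the pair numbered 1. Il20rb, which was selected on this contrast, lies below 0 in all 4 pairs under both, between -1.53 and -0.40. As deposited, 11.6% of all probe sets were lower in all 4 pairs.

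Il10rb, the shared chain of the IL-10, IL-22 and lambda interferon receptors, read 4.82, 5.78, 5.73 and 5.17 at 2 h. The non-wounded samples read 5.75, 5.73, 6.16 and 6.41. The groups overlapped, since 2 h replicate 2 lay above non-wounded replicates 1 and 2. The means were 5.38 ± 0.46 at 2 h and 6.01 ± 0.33 without a wound (SD, n = 4 each), with a difference of -0.64 (95% interval -1.58 to 0.30; limma, adjusted p = 0.998). At 30 min the samples read 4.05 and 6.12, the lowest of the 12 samples and a value near the top of them. The difference was -0.93 (limma, adjusted p = 0.735), or -0.75 with the replicate block (adjusted p = 0.480). Without 30 min replicate 2 it was -1.96, and without 30 min replicate 1 it was 0.11. Each of these rests on 1 sample at 30 min, so no test is given. The 0 h sample read 5.68, -0.07 from the non-wounded sample numbered 1 (-0.10 after scaling), and the 4 h sample 5.12, -0.62 from it (-0.60 after scaling).

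Il22ra1, the ligand-binding chain for IL-22 and a partner of IL-20RB, varied little apart from 1 sample. At 2 h it read 4.67, 3.92, 3.94 and 4.04, against 3.99, 3.97, 3.93 and 3.83 in non-wounded samples. Replicate 1 stood above the rest, and the other 3 overlapped with the non-wounded samples. The difference of 0.21 did not pass (limma, adjusted p = 0.998). The 30 min samples, 4.19 and 4.03, both lay above all non-wounded samples, and 7.62% of all probe sets did not overlap in that comparison. After scaling the groups overlapped, with 30 min replicate 1 at 4.01 and non-wounded replicates 2 to 4 at 4.04, 4.07 and 4.07. As deposited, the difference was 0.18 (limma, adjusted p = 0.793), or 0.08 with the replicate block (adjusted p = 0.884). The 0 h sample read 3.93, -0.06 from the non-wounded sample numbered 1 (-0.04 after scaling), and the 4 h sample 4.36, 0.38 above it (0.37 after scaling).

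The cytokine genes had values between 2.33 and 4.56. Il19, a ligand of the IL-20RA and IL-20RB pair, read 3.84, 3.57, 3.61 and 3.92 at 2 h, against 3.84, 3.63, 3.37 and 3.48 in non-wounded samples. The means were 3.74 ± 0.17 and 3.58 ± 0.21 (SD, n = 4 each), and the difference of 0.16 is given without a test. Pair differences were -0.0036, -0.06, 0.25 and 0.44, so the sign was not shared. The groups overlapped.

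The highest Il19 value of all 12 samples was 4.56, in the 30 min sample numbered 1, while 30 min replicate 2 read 3.65. The 30 min mean was 0.52 above the non-wounded mean, also given without a test. In the samples numbered 2 to 4 the difference was 0.15. The 0 h sample read 3.85, 0.0059 above the non-wounded sample numbered 1 (0.03 after scaling), and the 4 h sample 3.98, 0.13 above it (0.03 after scaling).

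**Figure D4:**
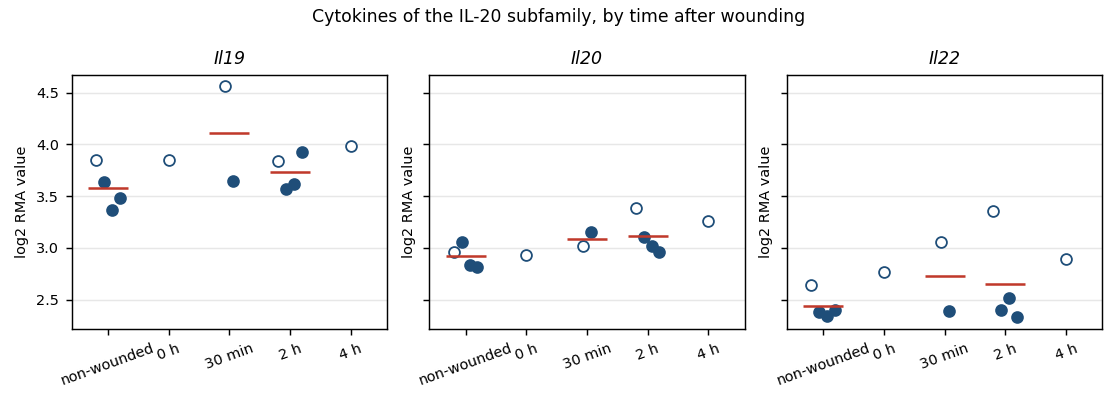
The 3 cytokine genes measured (log2 RMA value, shared scale) in non-wounded, 0 h, 30 min, 2 h and 4 h samples; points are samples, open points those numbered 1, and red lines are means of groups with over 1 sample. All values lie between 2.33 and 4.56, and the open points are the highest of their groups in all Il22 groups with over 1 sample.

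Il20, a keratinocyte cytokine that uses both IL-20 receptors, read 3.38, 3.11, 3.02 and 2.96 at 2 h and 2.96, 3.06, 2.83 and 2.82 without a wound. The pair differences were 0.42, 0.05, 0.19 and 0.14, or between -0.09 and 0.29 after scaling, and nothing is read from their sign. The difference of means, 0.20, did not pass (limma, adjusted p = 0.998). The 30 min samples read 3.02 and 3.16. The 0 h sample read 2.93, -0.03 from the non-wounded sample numbered 1 (0.02 after scaling), and the 4 h sample 3.26, 0.30 above it (0.09 after scaling). Against the non-wounded mean, scaling turned the 4 h difference from 0.34 to -0.24. Il22, a product of T cells and innate lymphocytes that acts on keratinocytes, read 3.36, 2.40, 2.52 and 2.33 at 2 h and 2.64, 2.38, 2.35 and 2.40 without a wound. The difference of 0.21 did not pass (limma, adjusted p = 0.998), and without the 2 h sample numbered 1 it was -0.03. Il22 read 3.06 and 2.39 at 30 min. The 0 h sample read 2.77, 0.13 above the non-wounded sample numbered 1 (0.20 after scaling), and the 4 h sample 2.89, 0.25 above it (-0.03 after scaling). Against the non-wounded mean, scaling turned the 4 h difference from 0.45 to -0.28. Both Il20 and Il22 had a mean under the 25th percentile of all probe sets, where RMA gives no detection call.

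Of the 5 genes that enter by name, 0 passed at 2 h against non-wounded, at 30 min against non-wounded or at 2 h against 30 min. Over all probe sets limma called 3 at 2 h, all higher, and 17 with the replicate block, 14 higher and 3 lower. Without 2 h replicate 1 it called 11, and without any other single sample of these groups 0. It called 0 at 30 min against non-wounded (63 had an unadjusted p under 0.05) and 0 at 2 h against 30 min (27 had one), with or without the block (136 and 67 with it). Without 30 min replicate 2 it called 74 at 30 min against non-wounded and 3 at 2 h against 30 min, and without 2 h replicate 1 it called 9 at 2 h against 30 min. At 2 h, 4.74% of all probe sets did not overlap with non-wounded, and none of the 7 genes was among them.

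Over the 7 samples numbered 2 to 4, of which 3 are 2 h and 3 non-wounded samples, the values of the other genes are set beside Il20rb as a description. No p is given, since Il20rb was selected on the difference between these groups. Pearson's r was 0.811 with Il20ra (Spearman's rho 0.857), -0.455 with Il22ra1 (rho -0.536) and 0.879 with Il10rb (rho 0.857), a chain that does not pair with IL-20RB. It was -0.843 with Il19 (rho -0.714), -0.212 with Il20 and -0.112 with Il22. Without the 2 samples farthest from the median of Il20rb, 2 h replicates 3 and 4, r was 0.421 for Il20ra, 0.619 for Il10rb and -0.572 for Il19. After scaling, r was 0.812 for Il20ra, 0.892 for Il10rb and -0.587 for Il19, and the sign turned for the other 3, with 0.399 for Il22ra1, 0.449 for Il20 and 0.648 for Il22.

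**Figure D5:**
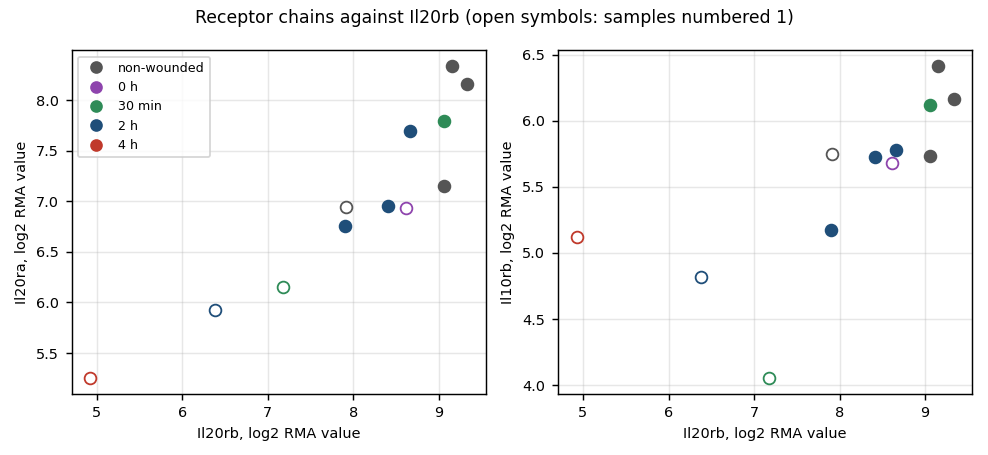
Il20ra (left) and Il10rb (right) against Il20rb, all in log2 RMA values, 1 point per sample, coloured by group, with open points for the samples numbered 1. Among the 7 filled points r was 0.811 for Il20ra and 0.879 for Il10rb, and the 4 h point lies apart at an Il20rb value of 4.93.

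Among 908 named genes, those whose values over the same 7 samples were most like Il20rb were Psmc1, a proteasome ATPase (r = 0.993), Il1f5, which encodes the IL-36 receptor antagonist (0.972), Il15ra, the IL-15 receptor alpha chain (0.971), Cog7, a Golgi tether subunit (0.959), and Zkscan3, a zinc finger gene (0.947). By the same measure Il10rb stood at place 21 and Il20ra at place 48. Among the 5 most like Il19 were Hs6st3, a heparan sulfate sulfotransferase (0.957), Il18rap, the IL-18 receptor accessory chain (0.953), St6galnac4, a sialyltransferase (0.943), and Cd248, the stromal protein endosialin (0.937). After scaling, 4 of the 5 genes were shared for Il20rb and 1 of 5 for Il19. These are descriptions of the closest of many genes.

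Of 13 other IL-10 family cytokine and class II receptor genes, 12 were measured, and 5 were higher and 7 lower at 2 h with a median difference of -0.01, against 0.03 over all probe sets. None passed (limma, with or without the block). Ifnlr1, the lambda interferon chain that pairs with IL-10RB, read 6.09, 6.45, 6.12 and 6.20 at 2 h, against 7.37, 7.04, 6.89 and 6.63 in non-wounded samples. The groups did not overlap, as was the case for 4.74% of all probe sets. The difference was -0.77 ± 0.24 (SE; limma, adjusted p = 0.452, with the block 0.137). Ifnar2, a type I interferon receptor chain, differed by 0.69 (limma, adjusted p = 0.707, with the block 0.122). Ifnl3, a lambda interferon, differed by 0.71 (limma, adjusted p = 0.998, with the block 0.0651).

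Of 13 cytokines known to induce IL-20 subfamily genes, 11 were measured. At 2 h 6 were higher and 5 lower, with a median difference of 0.11, against 0.03 over all probe sets, and 0 passed in either fit. Il1b, an inflammatory cytokine of myeloid cells, differed by 1.26 (limma, adjusted p = 0.354, with the block 0.0987) and Il6 by 1.01 (adjusted p = 0.354). Il1f9, which encodes IL-36 gamma, differed by -0.89 (adjusted p = 0.876). None of the 9 listed genes of the JAK and STAT pathway was measured.

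Of 20 genes listed as responding to IL-20 subfamily cytokines in keratinocytes, 9 were measured, and 8 were higher and 1 lower at 2 h. The median difference was 1.26, against 0.03 over all probe sets. That median is the value of Il1b, which is also on the list of inducing cytokines and did not pass. Fgf7, also measured, is on the list of dermal fibroblast markers as well. Hbegf, which encodes an EGF receptor ligand of keratinocytes, rose by 3.18 (limma, adjusted p = 0.0376) and Ccl20, a chemokine for CCR6 cells, by 4.09 (adjusted p = 0.0412). Both calls were lost when any 1 of the other 7 samples of these groups, 2 h replicate 1 aside, was left out. With the replicate block 5 rose, the other 3 being the neutrophil chemokine genes Cxcl2 (3.13, adjusted p = 0.0297) and Cxcl1 (2.40, adjusted p = 0.0463) and Vegfa, which drives vessel growth (1.23, adjusted p = 0.0265). Over all probe sets 0.241% passed at 2 h, and 1.36% with the block. The list was chosen with earlier results of these data known, so nothing is read from its share beside these. In the 4 h sample the median was 1.21 against the non-wounded sample numbered 1, with 7 higher and 2 lower. Over all probe sets that median was 0.02. Many other wound signals act on these genes, and which of them did so here was not tested.

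Levels of cell type markers are given beside these results, since the receptor chains belong mainly to keratinocytes. Of 12 keratinocyte markers 5 were measured (Lgals7, Fgfr2, Notch3, Jag2 and Sdc1). At 2 h 1 was higher and 4 lower, with a median of -0.21 and 0 called, and the log2 of their summed level was 11.65 to 12.82 at 2 h and 12.27 to 12.90 in non-wounded samples. At 4 h all 5 were lower than in the non-wounded sample numbered 1, with a median of -1.04. After scaling 4 of 5 were lower, with a median of -0.66. The median over all probe sets at 4 h was 0.02, or -0.06 after scaling. Lgals7 read 11.53 at 4 h and 11.83 in the non-wounded sample numbered 1. The part of keratinocyte markers in the lower receptor values was not tested. Over all probe sets the median difference at 2 h was 0.03, and 1.36% passed with the replicate block. Median differences at 2 h were 0.52 for 4 Langerhans cell markers, of which Cd207 rose with the replicate block alone (0.91; limma, adjusted p = 0.0448 with it and 0.998 without), 0.01 for 4 T cell markers, -0.23 for 5 monocyte and macrophage markers, 0.22 for 5 neutrophil markers and 0.16 for 9 dermal fibroblast markers.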

How the data were processed

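Total RNA was extracted with Trizol and labelled as biotinylated cRNA for Affymetrix arrays, per the labels' protocols. The authors deposited log2 values of 1246 probe sets in 12 samples, made with RMA per the submitters' processing notes; the sources used here give no RMA version, array name, batches or filters. RMA makes no detection call, and precision is limited by how many arrays there are. Probe sets were named by unversioned accession through a RefSeq table (GRCm38.p6): 963 matched 1 symbol, 0 several and 283 none.

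All 12 samples entered one limma 3.58.1 fit (R 4.3.3) of group means, p-values adjusted by Benjamini-Hochberg across the 1246 probe sets, and calls made at 0.05. A fit with the replicate number as a block was the alternative, since deviations of same-numbered 2 h and non-wounded samples correlated at 0.796, 0.449, 0.651 and 0.297, all over the limit of 0.1. Single samples were described without a test. The fits were tested on simulated data. Motifs, figures and correlations used Python 3.11.15. The genes and lists were chosen with earlier results of these data known, and the comparison with probe sets of like level at 4 h and the scaling combined with the block were added after seeing the data. Named were all members, list genes past the threshold in either fit, otherwise up to 4 per list with the smallest p, and the 5 genes most like Il20rb and Il19; not every gene this rule takes is given.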

Additional observations from a re-analysis of the deposited data

Results flagged for a closer look

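In 14 groups of 4 samples (the 2 h and the non-wounded group of each of the 7 genes), 1 sample stood apart from the others. Il22ra1 read 4.67 in 2 h replicate 1, against 3.92 to 4.04 in the other 3 samples at 2 h, and its gap to the nearest was 0.846 of the range of the group. Chance gives such a gap in about 1 in 20 groups. This sample is 1 of the 5 numbered 1, whose values have the narrower range.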

How the results depend on the processing

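Of 330 values of the 7 genes under an alternative, 39 changed sign: 32 of 302 in replicated comparisons and 7 of 28 at 0 h and 4 h. In replicated comparisons no tested difference passed the threshold under an alternative that kept over 1 sample in each group compared. Il10rb at 30 min was -1.96 without 30 min replicate 2, which leaves 1 sample there. Il20rb at 2 h stayed below 0 under 16 of 16 alternatives, from -1.34 to -0.54. The gene was selected on this contrast and the alternatives re-use its samples, so nothing is read from the shared sign. With the replicate block the count of probe sets past the threshold at 2 h against non-wounded was 17. The block changed no call of the genes tested there, which leaves out Il20rb and Il19. That count was 38 in the samples numbered 2 to 4, 0 after median centring, 7 after repeated quantile normalization, 10 after scaling with the block and 0 to 11 with 1 sample left out. Leave-one-out counts were 0 to 74 at 30 min against non-wounded and 0 to 9 at 2 h against 30 min. In the last comparison it was also 2 in the samples numbered 2 to 4, 1 after scaling, 2 after quantile normalization and 1 after scaling with the block.

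The sign changes in replicated comparisons were in differences that did not pass or had no test, and those at 0 h and 4 h had no test; their cause was not tested. At 0 h, Il20rb was -0.25 from the non-wounded mean, 0.29 after scaling and 0.70 from the non-wounded sample numbered 1, Il22 was -0.0451 after scaling, and Il20 was -0.31 after scaling and -0.0272 from the sample numbered 1. At 4 h after scaling, Il22 was -0.28 and Il20 -0.24. At 30 min against non-wounded, Il20 was -0.13 after scaling, -0.0502 after quantile normalization and -0.0898 after scaling with the block, Il22 was -0.0130 after scaling, and Il10rb was 0.0177 in the samples numbered 2 to 4. At 2 h against 30 min, the samples numbered 2 to 4 gave 0.0564 for Il19, -0.13 for Il20, 0.0252 for Il22, -0.0619 for Il22ra1 and -0.56 for Il10rb. There Il22 was 0.0743 with the replicate block, 0.10 after scaling, 0.0595 after quantile normalization and 0.0822 after scaling with the block. Leaving out 1 sample at a time, the 30 min differences ranged from -1.69 to 0.19 for Il20rb, -1.49 to 0.14 for Il20ra, -1.96 to 0.11 for Il10rb and -0.0515 to 0.62 for Il22. Those of 2 h against 30 min ranged from -1.22 to 0.66 for Il20rb, -0.96 to 0.68 for Il20ra, -0.75 to 1.32 for Il10rb, -0.14 to 0.12 for Il22ra1, -0.82 to 0.0908 for Il19, -0.0579 to 0.10 for Il20 and -0.41 to 0.26 for Il22. Il22 at 2 h against non-wounded ranged from -0.0262 to 0.32. RMA values near the floor, as for Il20 and Il22, carry no detection call.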
